A study of Bos taurus with 21 samples.

Results

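The genes described are 54 cell cycle and proliferation genes, chosen as a list of gene names and followed in foetal bovine muscle from 110 to 260 days post conception (dpc). Each gene was measured by the probe whose RefSeq transcript belongs to it in the cattle annotation, and by the brightest probe where there were several. A probe was found for 49 of the 54 genes, among 12538 named genes on the array. *CDT1*, *GINS2*, *CENPA*, *TOP2A* and *MKI67* had none and are not analysed here. The arrays held RNA from 21 foetuses, 1 array each. Of the Blonde d'Aquitaine (BA), a heavily muscled French beef breed, there were 3, 2, 3 and 2 foetuses at 110, 180, 210 and 260 dpc, and there were 2, 3, 3 and 3 of the Charolais (CH), the beef breed it was compared with. The foetuses of each breed had 2 sires in all, the labels name no treatment, and the BA foetuses had no genotype taken at myostatin, the gene with a known mutation in that breed. The sample labels name the muscle Longissimus thoracis, whereas the paper names it m. Semitendinosus. The question was when the expression of these genes falls during gestation, which of them do not follow, and whether the breeds differ.

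A dividing cell passes through G1, copies its DNA in S phase, and separates the copies in mitosis. D cyclins with *CDK4* and *CDK6* free the E2F transcription factors from the retinoblastoma proteins, E2F switches on the genes of DNA synthesis, and cyclins A and B with *CDK1* drive mitosis, after which the anaphase-promoting complex destroys them. CDK inhibitors hold cells in G1, and myoblasts leave the cycle for good before they fuse into fibres, whereas fibroblasts, endothelial cells and satellite cells of the same tissue can keep dividing.

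Levels are log2 intensities on a scale whose 0 lies at the level of an average array's median probe, and differences are on the same log2 scale, so that −1 is a fall to 50% of the earlier level. Levels of different probes are not comparable with each other. The 75th percentile of intensity ranged from 525 to 1174 units between arrays, and 29017 to 34501 of 43653 probes were well above background on an array. Of the 49 genes, 43 were well above background on all 21 arrays, and *CCNE2*, *CDC6*, *BUB1*, *TTK*, *CDCA8* and *KIF11* were not. The replicates of a group are separate foetuses, some of which share a sire. The study used 6 slides and 3 days of scanning. At 260 dpc both BA foetuses were female and 2 of the 3 CH foetuses were male.

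The cell cycle genes fell together through gestation. From 110 to 260 dpc, with the breeds averaged, 47 of 49 genes were lower, 1 was higher and 1 did not pass the test (limma, Benjamini-Hochberg adjusted p under 0.05 over all probes). Over the whole array, 22.7% of probes were lower and 21.2% higher in this comparison. The median difference of the 49 genes was −2.16 against 0.09 over all probes. The exceptions were *CDKN1B*, a CDK inhibitor, and *CCNE1*, the cyclin that works with *CDK2* at entry to S phase. For each of the 47 genes that fell, every array at 260 dpc lay below every array at 110 dpc, a separation that 17% of all probes showed. In whole muscle, fewer dividing cells and less of these RNAs per cell cannot be told apart.

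The fall was not even. From 110 to 180 dpc 39 genes were lower and none higher, with a median of −0.72, where 6.63% of all probes were lower and 6.53% higher. *CDKN1B* was the highest in that step at 0.27 (adjusted p = 0.069). From 180 to 210 dpc 8 genes were lower and none higher, with a median of −0.33, where 1.67% of all probes were lower and 1.95% higher. From 210 to 260 dpc 42 genes were lower and none higher, with a median of −1.07, where 12% of all probes were lower and 11.9% higher. Without adjustment, p was under 0.05 for 1 gene that was higher in the first step and for 0 in the second and the third. In the second step it was under 0.05 for 30 genes that were lower, where 16.1% of all probes had such a p in either direction. These successive steps share arrays, so they are given side by side. The steps last 70, 30 and 50 days. Set to 30 days, the median changes were −0.31, −0.33 and −0.64, so the first and the second step had about the same slope and the third was the steepest for 39 of the 47 genes that fell.

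**Figure D1:**
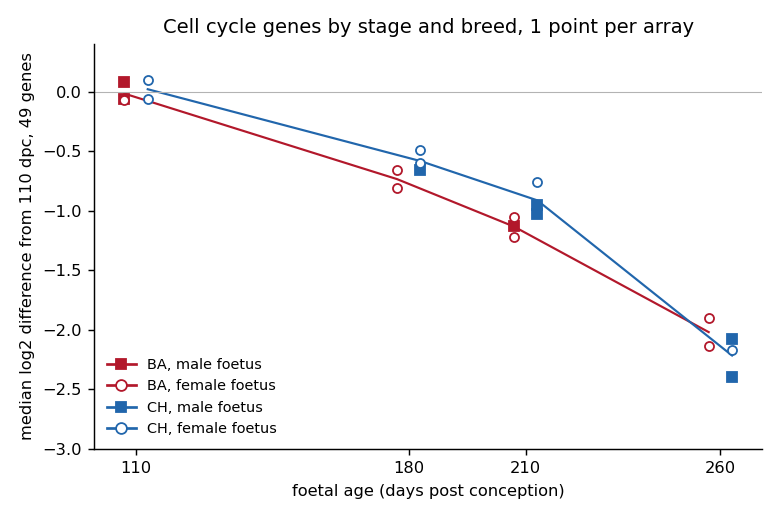
Median log2 difference of the 49 genes from their mean at 110 dpc, 1 point per array, by foetal age in days post conception. Squares are male and circles female foetuses, red BA and blue CH, and lines join group means. The array medians fell from between −0.07 and 0.10 at 110 dpc to between −2.40 and −1.90 at 260 dpc.

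Taken as the median over the 49 genes of the difference from 110 dpc, no array at a later stage overlapped the arrays at 110 dpc. The BA arrays gave −0.06, −0.07 and 0.08 at 110 dpc, −0.81 and −0.66 at 180 dpc, −1.05, −1.22 and −1.13 at 210 dpc and −1.90 and −2.14 at 260 dpc. The CH arrays gave 0.10 and −0.06 at 110 dpc, −0.49, −0.60 and −0.66 at 180 dpc, −0.76, −0.95 and −1.03 at 210 dpc and −2.40, −2.08 and −2.17 at 260 dpc. Within each breed the 4 stages did not overlap. The widest gap between neighbouring stages lay between 210 and 260 dpc in both breeds.

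Of the 47 genes that fell, 38 had their largest step after 210 dpc, 8 before 180 dpc, and *CDKN1A* alone between 180 and 210 dpc. The median shares of the whole fall were 32.8% in the first step, 16.8% in the second and 50.2% in the third. The first and the third step passed the test together, without the second, for 29 genes, and all 3 steps passed for 6. These were *GINS1* of the replicative helicase, the mitotic kinase *AURKB*, *CDC20* and *PTTG1* of anaphase, the mitotic kinesin *KIF20A*, and *STMN1*, which destabilizes microtubules. *STMN1* had the lowest adjusted p over the whole interval (6.64e-12), with a fall of 2.66 ± 0.09 (SE). The 6 genes that passed in the last step alone were *CCND1*, *CCND3*, *CDK4*, *CDK2*, *CKS1B* and *BIRC5*. *CCNE1*, *PCNA* and *CDKN1B* passed in no single step.

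**Figure D2:**
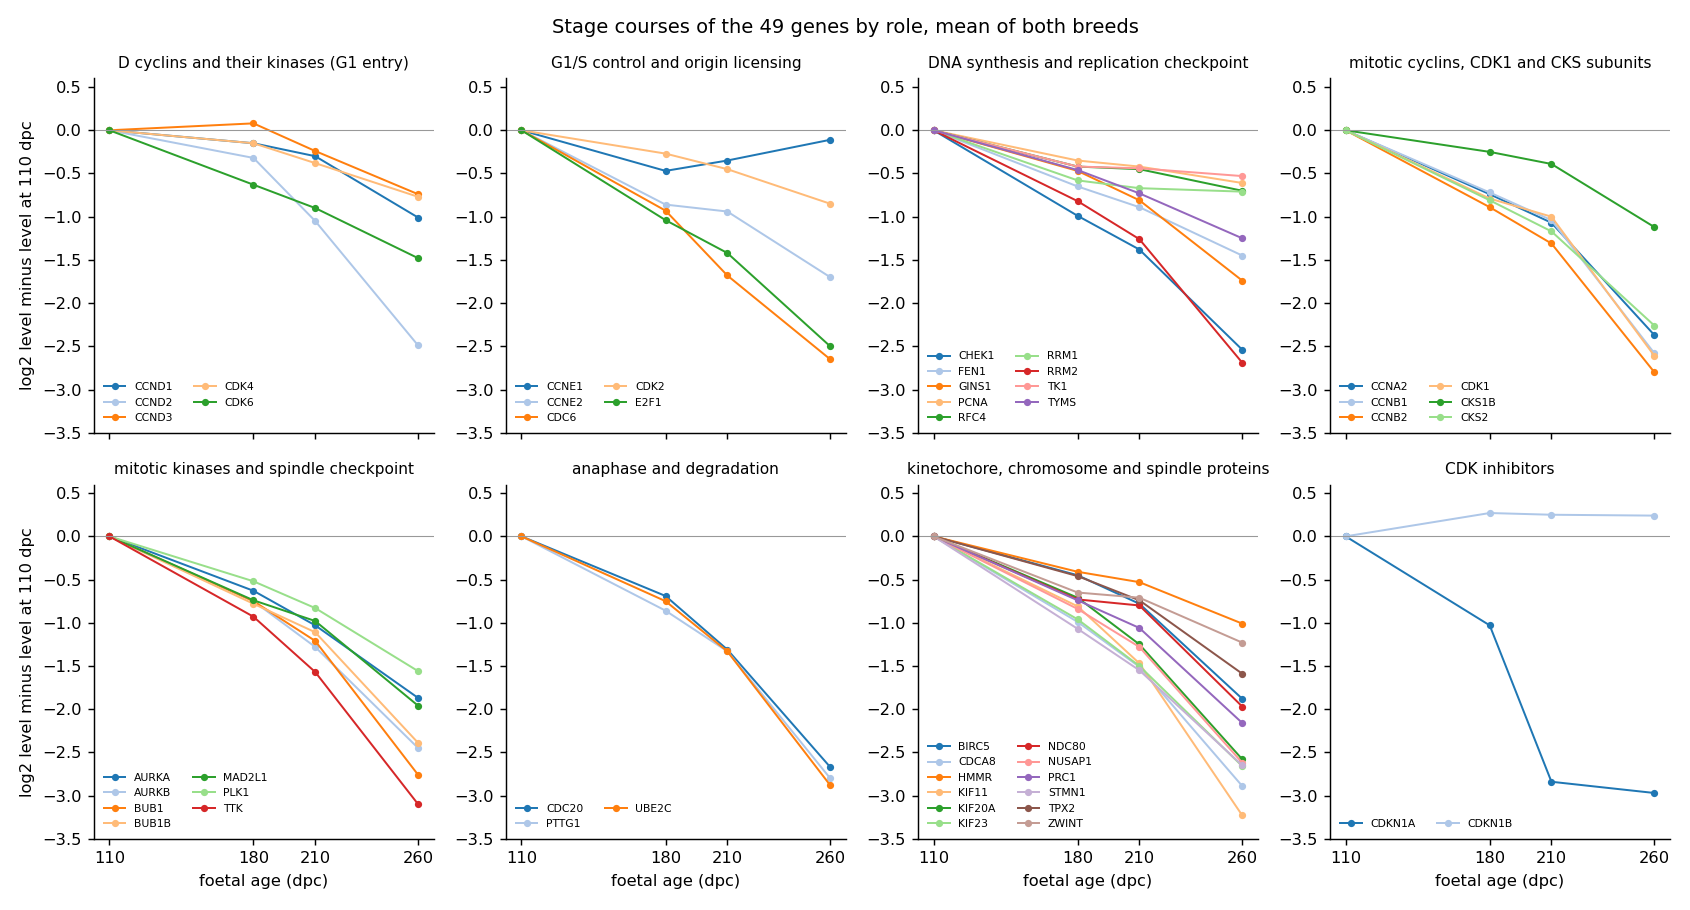
Log2 level minus the level at 110 dpc (y axis) by foetal age (x axis) for the 49 genes, mean of the BA and CH group means, in 1 panel per role. The mitotic cyclins end at a median of −2.48 and the D cyclins and their kinases at −1.01, while CDKN1B ends at 0.24 and CCNE1 at −0.12.

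The D cyclins and their kinases, which open the cycle in answer to growth signals, mostly passed the test only after 210 dpc. Of these 5 genes, 1 was lower from 110 to 180 dpc, 1 from 180 to 210 dpc and 5 from 210 to 260 dpc. Over the whole interval all 5 were lower, with a median of −1.01. *CCND2* fell the most, by 2.49 ± 0.12 (SE, adjusted p = 2e-10, limma), a 5.63-fold change. In BA its level was 8.89, 8.98 and 8.99 at 110 dpc, 8.69 and 8.95 at 180 dpc, 8.02, 8.25 and 8.01 at 210 dpc and 6.66 and 6.39 at 260 dpc. In CH it was 9.41 and 9.20 at 110 dpc, 8.83, 8.88 and 8.71 at 180 dpc, 7.96, 8.42 and 7.81 at 210 dpc and 6.78, 6.65 and 6.80 at 260 dpc. The arrays at 110 and 180 dpc overlapped, and those at 210 and at 260 dpc lay apart from them and from each other. Its step from 110 to 180 dpc did not pass the test (−0.32 ± 0.12 SE, adjusted p = 0.0923), whereas the steps to 210 dpc (−0.73 ± 0.11, adjusted p = 0.002) and 260 dpc (−1.44 ± 0.11, adjusted p = 8.46e-07) did.

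*CCND1* and *CCND3* changed less. *CCND1* lay at 4.38, 3.89 and 4.09 at 110 dpc, 4.17 and 4.11 at 180 dpc, 3.85, 4.00 and 3.92 at 210 dpc and 3.40 and 3.21 at 260 dpc in BA. The CH foetuses had 4.81 and 4.63 at 110 dpc, 4.70, 4.12 and 4.35 at 180 dpc, 4.09, 4.44 and 4.40 at 210 dpc and 3.83, 3.40 and 3.31 at 260 dpc. All arrays at 260 dpc lay below those at 110 dpc, while the 3 earlier stages overlapped. *CCND1* differed by −0.15 ± 0.14 from 110 to 180 dpc (SE, adjusted p = 0.56), by −0.15 ± 0.13 from 180 to 210 dpc (adjusted p = 0.668) and by −0.71 ± 0.13 from 210 to 260 dpc (adjusted p = 0.000998), in all a 2.01-fold fall.

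*CCND3* in BA was 5.51, 5.95 and 6.03 at 110 dpc, 6.01 and 5.99 at 180 dpc, 5.82, 5.79 and 5.76 at 210 dpc and 5.42 and 5.36 at 260 dpc. In CH, *CCND3* was 6.20 and 6.34 at 110 dpc, 6.51, 6.08 and 6.15 at 180 dpc, 5.59, 6.05 and 5.87 at 210 dpc and 5.45, 4.92 and 5.35 at 260 dpc. Its arrays at 110 and 180 dpc overlapped, and every array at 260 dpc lay below them. It fell by 0.50 ± 0.13 (SE) in the last step (adjusted p = 0.0103, limma) and by 0.74 ± 0.14 in all. Of the whole fall, 42.2% lay between 180 and 210 dpc, in a step that did not pass the test. *CDK4*, the common partner of the D cyclins, fell by 0.77 ± 0.10, with only its last step past the test (−0.38 ± 0.09, adjusted p = 0.0058). *CDK6*, their other partner, fell by 1.48 ± 0.16 and was the member of this group that was already lower at 180 dpc (−0.63 ± 0.16, adjusted p = 0.0139).

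Genes of the G1/S transition and of origin licensing mostly fell early and again late. Of these 5 genes, 3 were lower at 180 than at 110 dpc, none at 210 than at 180 dpc and 4 at 260 than at 210 dpc. *E2F1*, the transcription factor of the S phase genes, fell by 2.50 ± 0.21 (SE, adjusted p = 8.52e-08). *CCNE2* fell by 1.69 ± 0.17 and *CDK2*, the kinase of the E cyclins, by 0.84 ± 0.10. *CCNE1* did not pass at any step, and its difference from 110 to 260 dpc was −0.12 ± 0.26 (SE, adjusted p = 0.742, 95% interval −0.66 to 0.43). With normexp background correction that difference was 0.12. *CCNE1* was well above background on all 21 arrays, between −0.89 and 0.82, with both extremes in BA at 210 dpc.

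*CDC6*, which loads the helicase on origins, was measured by a probe near background. In BA it was −1.48, −1.51 and −1.67 at 110 dpc, −2.56 and −2.89 at 180 dpc, −3.67, −3.62 and −3.63 at 210 dpc and −3.40 and −4.24 at 260 dpc. In CH it was −1.46 and −1.39 at 110 dpc, −2.08, −2.58 and −1.66 at 180 dpc, −2.12, −2.24 and −3.73 at 210 dpc and −4.61, −4.23 and −4.50 at 260 dpc. Every array at 260 dpc lay below every array at 110 dpc. It was well above background on 9 of 21 arrays and on none at 260 dpc, so its fitted fall of 2.65 ± 0.27 (SE, adjusted p = 8.77e-07) is not a measured fold. Its level at 110 dpc was 1.71-fold in BA and 1.99-fold in CH above the lowest signal that counts as well above background at 260 dpc. Probes above that lowest signal can still be not well above background, so such folds are reference values and not strict bounds. With normexp background correction the difference was −0.15 (adjusted p = 0.273, limma). *CCNE2* was not well above background in BA at 260 dpc either, where the same reference gave 2.9-fold.

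Of 9 DNA synthesis genes, some fell in the first and the last step and others in the first alone. Of these 9 genes, 8 were lower at 180 than at 110 dpc, 1 at 210 than at 180 dpc and 5 at 260 than at 210 dpc, and all 9 were lower over the whole interval (median −1.25). *RRM2*, the subunit that limits ribonucleotide reductase in S phase, fell the most. In BA it was 3.81, 3.58 and 3.75 at 110 dpc, 2.37 and 2.92 at 180 dpc, 2.36, 2.16 and 2.40 at 210 dpc and 1.54 and 1.07 at 260 dpc. The CH arrays gave 3.72 and 3.60 at 110 dpc, 3.29, 2.92 and 3.08 at 180 dpc, 2.59, 2.55 and 2.50 at 210 dpc and 0.32, 0.76 and 1.01 at 260 dpc. The stages from 110 to 180 dpc and from 210 to 260 dpc did not overlap, and every CH array at 260 dpc lay below the BA arrays. Its fall was 2.69 ± 0.15 (SE, 6.45-fold, adjusted p = 9.79e-10), of which 53% came after 210 dpc.

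*RRM1*, the large subunit of the same enzyme, followed another course, and its arrays are given because of it. In BA it lay at 5.56, 5.47 and 5.53 at 110 dpc, 4.81 and 4.85 at 180 dpc, 4.71, 4.82 and 5.09 at 210 dpc and 4.85 and 4.73 at 260 dpc. In CH it lay at 5.61 and 5.54 at 110 dpc, 5.14, 5.15 and 5.04 at 180 dpc, 4.98, 4.84 and 4.86 at 210 dpc and 4.81, 5.04 and 4.86 at 260 dpc. The arrays at 110 dpc stood above all later arrays, and the 3 later stages overlapped. *RRM1* fell by 0.58 ± 0.09 (SE) from 110 to 180 dpc (adjusted p = 0.000341) and differed by −0.04 ± 0.08 from 210 to 260 dpc (adjusted p = 0.782, 95% interval −0.21 to 0.14). *TK1*, the thymidine kinase of the salvage pathway, had 81% of its fall of 0.53 ± 0.10 before 180 dpc, and *RFC4*, a subunit of the clamp loader, had 58.7% of its fall of 0.70 ± 0.10 there. *PCNA*, the sliding clamp itself, fell by 0.61 ± 0.13 (adjusted p = 0.00109) with no single step past the test. *RRM1*, *TK1* and *PCNA* had other probes, and these gave falls of 0.57 for *RRM1*, 0.56 for *TK1* and 0.34 and 0.35 for *PCNA* over the whole interval. In the same group *TYMS*, the thymidylate synthase, fell by 1.25 ± 0.08, *FEN1*, the flap endonuclease, by 1.45 ± 0.12, *GINS1* by 1.74 ± 0.09 and *CHEK1*, the replication checkpoint kinase, by 2.54 ± 0.16.

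**Figure D3:**
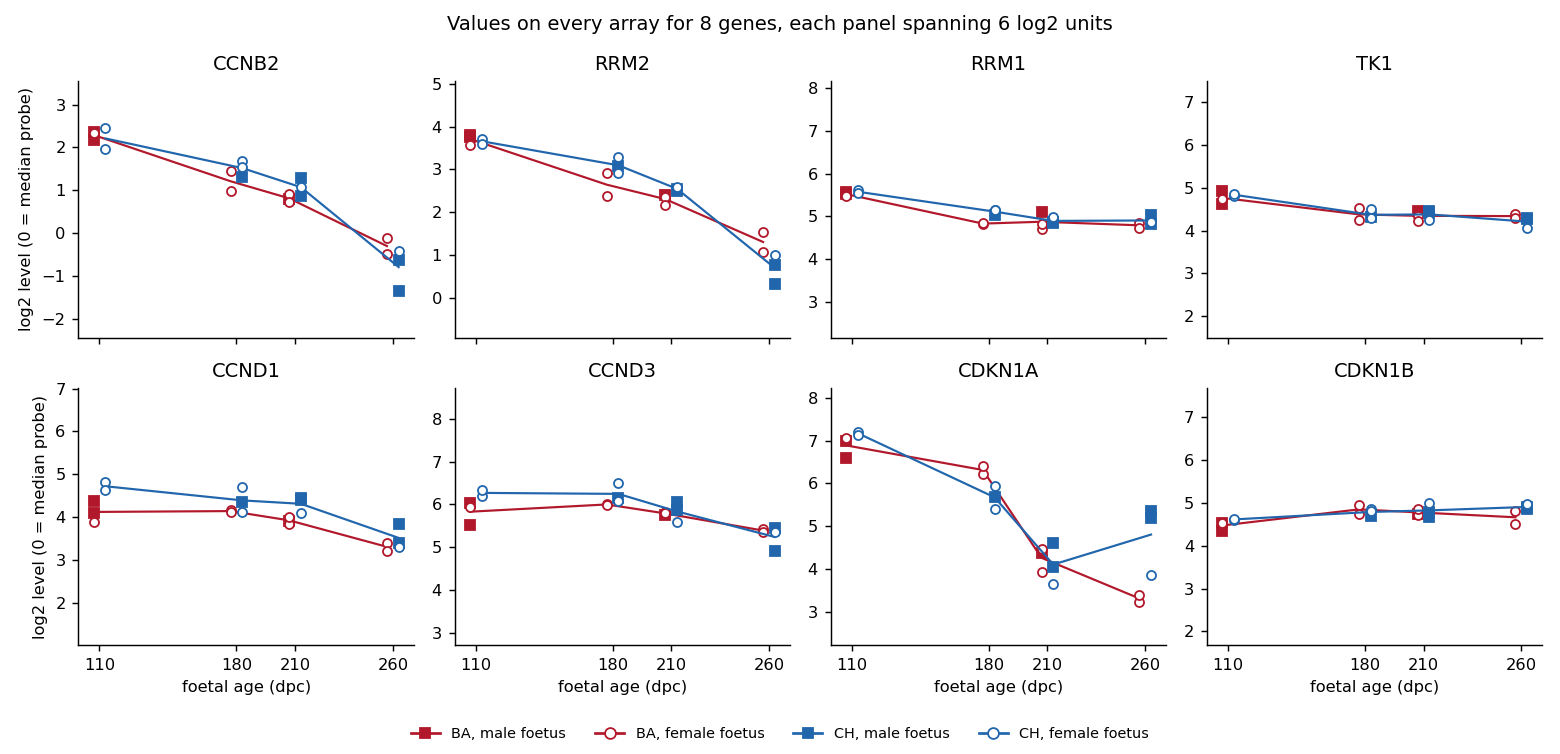
Log2 level on every array (y axis, 0 is the median probe) by foetal age for 8 genes, with squares for male and circles for female foetuses, red for BA and blue for CH, and lines through group means. CCNB2 and RRM2 ended 2.80 and 2.69 below their start, and RRM1 and TK1 stayed near their 180 dpc level. CCND1 and CCND3 passed the test only in the step after 210 dpc. CDKN1A fell up to 210 dpc and then differed by −0.95 in BA and 0.70 in CH, and CDKN1B stayed between 4.35 and 5.01.

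The mitotic cyclins, *CDK1* and the CKS subunits, which set off mitosis, fell in the first and the last step. Of 6 genes, 5 were lower at 180 than at 110 dpc, none at 210 than at 180 dpc and 6 at 260 than at 210 dpc, with a median of −2.48 over the whole interval. *CCNB2* fell the most. In BA it was 2.17, 2.34 and 2.36 at 110 dpc, 0.98 and 1.44 at 180 dpc, 0.90, 0.73 and 0.80 at 210 dpc and −0.12 and −0.49 at 260 dpc. In CH it was 2.45 and 1.97 at 110 dpc, 1.69, 1.55 and 1.31 at 180 dpc, 1.07, 0.86 and 1.28 at 210 dpc and −1.35, −0.62 and −0.42 at 260 dpc. Its arrays at 110 dpc lay above all others and those at 260 dpc below all others, while 180 and 210 dpc overlapped once the breeds were pooled. The fall was 2.80 ± 0.17 (SE, 6.96-fold, adjusted p = 3.78e-09). *CDK1* fell by 2.61 ± 0.17, *CCNB1* by 2.58 ± 0.18, *CCNA2*, the cyclin of S phase and early mitosis, by 2.37 ± 0.11 and *CKS2* by 2.26 ± 0.11. *CKS1B* fell by 1.12 ± 0.10 and was not lower at 180 than at 110 dpc (−0.25 ± 0.10, adjusted p = 0.123).

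All 7 mitotic kinases and spindle checkpoint genes were lower at 180 than at 110 dpc and again at 260 than at 210 dpc, and 1, *AURKB*, was lower at 210 than at 180 dpc. *TTK*, the kinase that starts the checkpoint, was 0.36, 0.75 and 1.06 at 110 dpc, −0.66 and −0.17 at 180 dpc, −0.79, −0.86 and −1.11 at 210 dpc and −2.26 and −2.65 at 260 dpc in BA. The CH foetuses gave 0.66 and 0.55 at 110 dpc, −0.01, −0.08 and −0.25 at 180 dpc, −0.75, −0.92 and −0.97 at 210 dpc and −2.92, −2.45 and −1.81 at 260 dpc. The highest array at 260 dpc was at −1.81 and the lowest at 110 dpc at 0.36, with the 2 stages between them in level. Its fitted fall was 3.09 ± 0.19 (SE, adjusted p = 3.66e-09). At 260 dpc *TTK* was well above background on neither BA array and on 1 of the 3 CH arrays. Its fitted fall is therefore not a measured fold. In BA its level at 110 dpc was 7.94-fold above the lowest signal that counts as well above background, or its own signal where that was higher. The checkpoint genes *BUB1*, *BUB1B* and *MAD2L1* fell by 2.77 ± 0.20, 2.39 ± 0.10 and 1.96 ± 0.18, and the kinases *AURKB*, *AURKA* and *PLK1* by 2.44 ± 0.12, 1.87 ± 0.14 and 1.57 ± 0.12. Of these, *BUB1* was well above background on only 2 of the 3 CH arrays at 260 dpc.

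The 3 genes of anaphase and protein degradation fell by 2.67 to 2.88 over the whole interval. *UBE2C*, the ubiquitin-conjugating enzyme of the anaphase-promoting complex, lay at 3.23, 3.05 and 3.37 at 110 dpc, 2.22 and 2.39 at 180 dpc, 1.69, 1.77 and 1.62 at 210 dpc and 0.76 and 0.19 at 260 dpc in BA. In CH it lay at 3.49 and 3.14 at 110 dpc, 2.71, 2.91 and 2.57 at 180 dpc, 2.00, 2.42 and 2.17 at 210 dpc and −0.20, 0.52 and 0.56 at 260 dpc. The stages did not overlap within a breed, and at 210 dpc the 3 BA arrays were below the 3 CH arrays. It fell by 2.88 ± 0.16 (SE, 7.37-fold, adjusted p = 1.25e-09). *PTTG1*, the securin that the complex destroys, fell by 2.80 ± 0.12, and *CDC20*, which activates the complex, by 2.67 ± 0.17.

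Kinetochore, chromosome and spindle proteins were the largest group. Of 12 genes, 11 were lower at 180 than at 110 dpc, 2 at 210 than at 180 dpc and 12 at 260 than at 210 dpc, and all 12 over the whole interval (median of fitted differences −2.37). *KIF11* is the kinesin that pushes the spindle poles apart. In BA it was 0.00, 0.48 and 1.08 at 110 dpc, −0.88 and 0.39 at 180 dpc, −0.83, −1.08 and −0.71 at 210 dpc and −2.06 and −2.27 at 260 dpc. In CH it was 0.62 and 0.21 at 110 dpc, −0.24, −0.46 and −0.61 at 180 dpc, −1.02, −1.02 and −1.32 at 210 dpc and −3.32, −3.62 and −3.09 at 260 dpc. The highest array at 260 dpc was at −2.06 and the lowest of all earlier arrays at −1.32. The fitted fall was 3.22 ± 0.23 (SE, adjusted p = 1.96e-08). At 260 dpc *KIF11* was well above background on 1 of 2 BA arrays and none of 3 CH arrays, so its fitted fall is not a measured fold. In CH its level at 110 dpc was 7.11-fold above the lowest signal that counts as well above background. *CDCA8* of the chromosomal passenger complex had a fitted fall of 2.89 ± 0.20. At 260 dpc it was well above background on 1 of 2 BA and 2 of 3 CH arrays, so this is not a measured fold either. The kinesin *KIF23* fell by 2.66 ± 0.20 and the spindle protein *NUSAP1* by 2.63 ± 0.14, whereas *ZWINT* of the kinetochore fell by 1.23 ± 0.19 and *HMMR*, a hyaluronan receptor that also binds the spindle, by 1.01 ± 0.10. *BIRC5*, the survivin of the passenger complex, did not pass from 110 to 180 dpc (−0.45 ± 0.15, adjusted p = 0.0552).

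**Figure D4:**
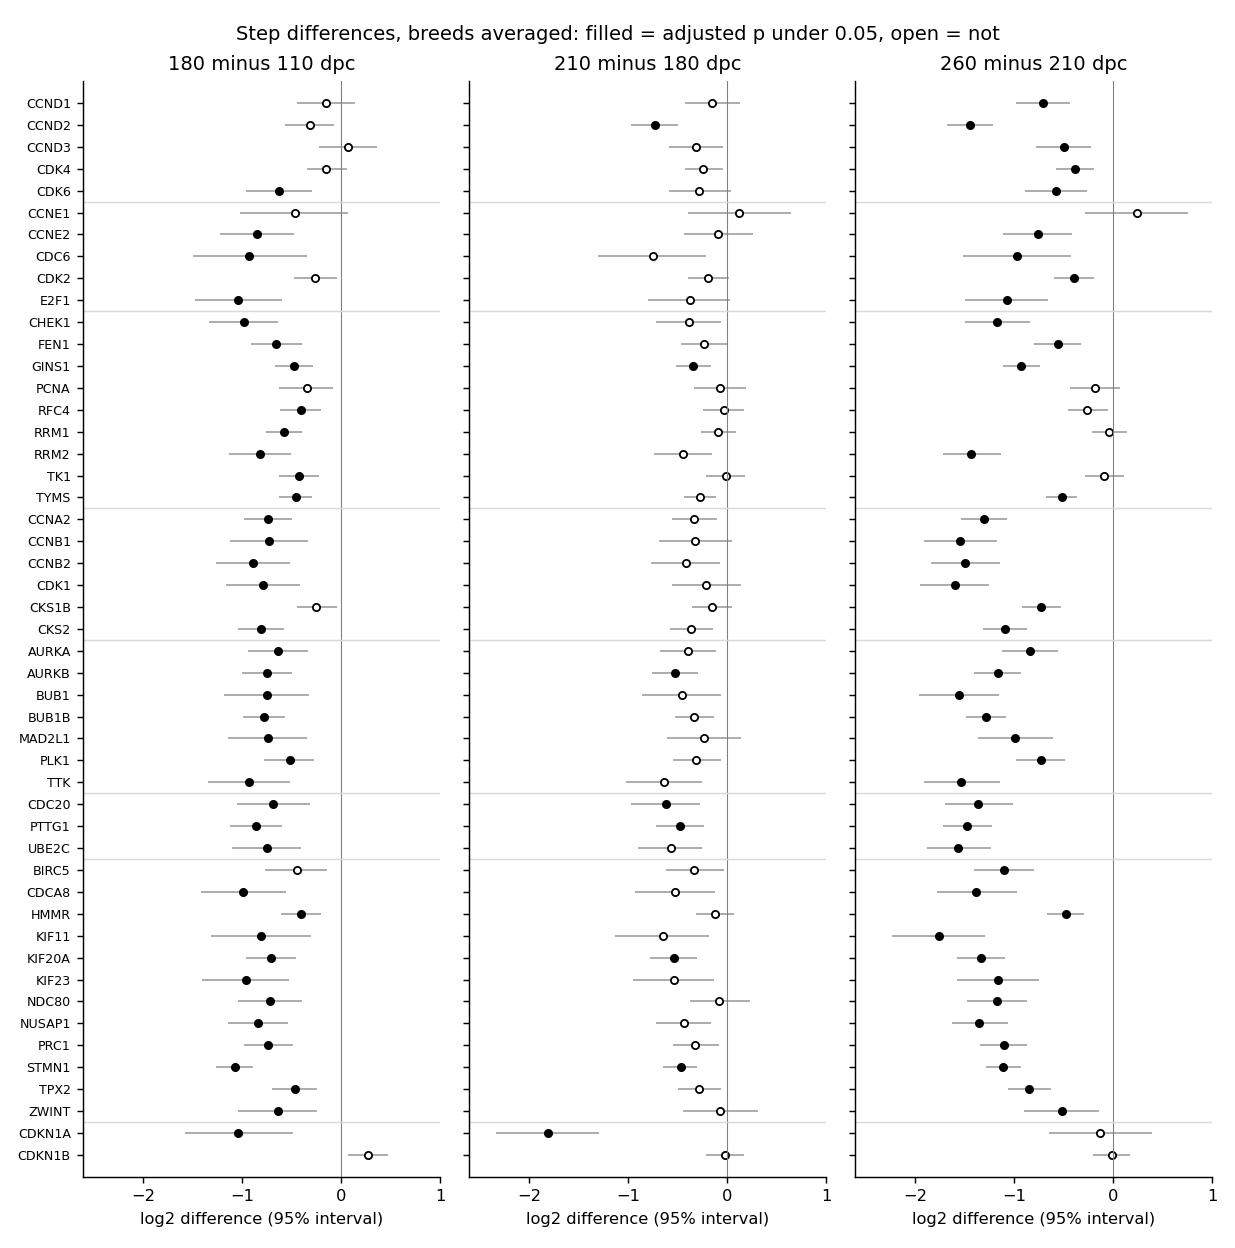
Log2 difference in each of the 3 steps (x axis, bars are 95% intervals) for the 49 genes (y axis, in order of role, grey lines between roles), breeds averaged. Filled points passed an adjusted p under 0.05 in limma: 39, 8 and 42 genes were lower in the 3 steps. CDKN1A has its largest fall in the middle panel.

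The CDK inhibitors went separate ways. *CDKN1A*, an inhibitor known to rise in myoblasts as they leave the cycle, was 6.60, 7.07 and 7.0 at 110 dpc, 6.23 and 6.40 at 180 dpc, 3.94, 4.47 and 4.38 at 210 dpc and 3.24 and 3.39 at 260 dpc in BA. In CH it was 7.21 and 7.14 at 110 dpc, 5.40, 5.94 and 5.69 at 180 dpc, 3.66, 4.61 and 4.05 at 210 dpc and 5.19, 5.36 and 3.87 at 260 dpc. All arrays at 110 dpc stood above all arrays at 180 dpc and these above all arrays at 210 dpc. At 260 dpc the arrays spread from 3.24 to 5.36, the widest range of any stage, with both CH males highest, the CH female at 3.87 and both BA females below it. With the breeds averaged it fell by 1.04 ± 0.26 (SE) from 110 to 180 dpc (adjusted p = 0.0138), by 1.81 ± 0.24 from 180 to 210 dpc (adjusted p = 0.000885, 3.5-fold) and differed by −0.13 ± 0.24 from 210 to 260 dpc (adjusted p = 0.764). The breeds moved in opposite directions in that last step, by −0.95 ± 0.36 in BA (adjusted p = 0.127), where both arrays at 260 dpc lay below those at 210 dpc, and by 0.70 ± 0.33 in CH (adjusted p = 0.171), and neither passed. Over the whole interval it fell by 2.97 ± 0.26 (7.85-fold). A second, dimmer probe of *CDKN1A* fell by 0.73, 0.90 and 0.23 in the 3 steps and by 1.87 in all.

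*CDKN1B*, an inhibitor that accumulates in resting cells, was 4.54, 4.53 and 4.35 at 110 dpc, 4.95 and 4.75 at 180 dpc, 4.73, 4.87 and 4.74 at 210 dpc and 4.51 and 4.82 at 260 dpc in BA. The CH level was 4.60 and 4.63 at 110 dpc, 4.86, 4.82 and 4.69 at 180 dpc, 5.01, 4.68 and 4.79 at 210 dpc and 4.85, 4.90 and 4.97 at 260 dpc. Every array at 180 dpc was above every array at 110 dpc, which 5.76% of all probes showed, and the arrays at 260 dpc overlapped those at 110 dpc. The difference from 110 to 260 dpc was 0.24 ± 0.09 (SE, adjusted p = 0.0492), or 1.18-fold. This call was lost in 18 of 21 fits that left out an array each (adjusted p from 0.0228 to 0.242). In the authors' unscaled values the difference was −0.15, and another probe of the gene gave −0.03 (adjusted p = 0.897).

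Both breeds showed the fall. From 110 to 260 dpc 45 of 49 genes were lower in BA (median −1.97, 17.5% of all probes lower) and 47 in CH (median −2.37, 16.4% lower). Those that did not pass were *CCNE1* and *CDKN1B* in both breeds and *CCND3* and *PCNA* in BA. From 110 to 180 dpc 28 genes were lower in BA (median −0.72, 3.03% of probes) and 14 in CH (median −0.59, 2.27%). From 180 to 210 dpc 1 gene passed in each breed, *CDKN1A* in BA (0.357%) and *CCND2* in CH (0.158%), with medians of −0.30 and −0.40. From 210 to 260 dpc 28 genes were lower in BA (median −0.83, 4.07%) and 41 in CH (median −1.28, 8.35%). The counts of a single breed rest on few arrays. Without BA replicate 1 at 180 dpc or BA replicate 3 at 110 dpc the first BA count was 4 or 17, without BA replicate 2 at 260 dpc the last BA count was 10, and without CH replicate 1 or 2 at 110 dpc, or 1, 2 or 3 at 180 dpc, the first CH count was 1, 3, 7, 5 or 2. Without either BA array at 260 dpc, which enter the shared estimate of the spread, the first CH count was 9.

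The steps within single slides had the same direction. Arrays on 1 slide gave medians of −0.94 to −0.42 from 110 to 180 dpc on slides 1, 3 and 6, −0.27 from 180 to 210 dpc on slide 6, and −1.17 to −0.77 from 210 to 260 dpc on slides 2 and 4. In these comparisons of 2 arrays 44 to 48 of the 49 genes were lower at the later stage. With the slide as a block, *PCNA* (−0.35, adjusted p = 0.201) and *TK1* (−0.49, adjusted p = 0.0508) no longer passed from 110 to 260 dpc, and 0 genes passed from 180 to 210 dpc.

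A difference between the breeds in these genes was not shown by the test at any stage. No gene passed in limma at 110, 180, 210 or 260 dpc or in the mean of the stages, and the lowest adjusted p-values were 0.338, 0.759, 0.981, 0.48 and 0.199. Across the array 0.0137% of probes were lower and 0.00687% higher in BA at 110 dpc, 0.00916% and 0.0183% at 180 dpc, 0.00229% and 0% at 210 dpc, 0.00687% and 0.00687% at 260 dpc, and 0.0298% and 0.0435% in the mean. Before adjustment, p was under 0.05 for 2, 6, 4, 12 and 5 genes in these comparisons of 49, against 9.78%, 5.86%, 4.41%, 4.6% and 8.92% of all probes. The medians of BA minus CH were −0.03 at 110 dpc, −0.18 at 180 dpc, −0.12 at 210 dpc, 0.20 at 260 dpc and −0.03 in the mean. The median at 180 dpc was −0.07 without BA replicate 1 of that stage, and the median at 260 dpc was 0.12 without BA replicate 1 of its stage.

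At 110 dpc the differences were scattered, with 22 genes higher in BA (51.6% of all probes were). The BA arrays lay below all CH arrays in 11 genes (10.6% of all probes) and above them in 5 (14.4%). All 3 D cyclins were lower in every BA array than in every CH array. The largest difference was in *CCND1*, at 4.38, 3.89 and 4.09 in BA and 4.81 and 4.63 in CH, or −0.61 ± 0.20 (SE, adjusted p = 0.338). *CCND3* differed by −0.44 ± 0.19 (adjusted p = 0.48) and *CCND2* by −0.35 ± 0.16 (adjusted p = 0.512). Both CH foetuses at this stage were female and 2 of the 3 BA foetuses male.

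At 180 and 210 dpc most genes had lower values in BA. The genes fell together, so the counts below are not of independent genes. By array medians over the 49 genes, the breeds met at −0.66 at 180 dpc. At 210 dpc the BA arrays (highest −1.05) lay below the CH arrays (lowest −1.03). At 180 dpc 10 genes were higher in BA, where 56.7% of all probes were, and in 13 genes every BA array lay below every CH array, which 9.9% of all probes showed, with the reverse in 1 gene (12.6%). At 210 dpc 9 genes were higher in BA, where 49.1% of all probes were, and in 10 genes the BA arrays lay below the CH arrays (4.71% of all probes) and above them in none (4.38%). The largest difference at 180 dpc was in *CCNE2* (−0.66 ± 0.25 SE, adjusted p = 0.759). At 210 dpc, leaving out *CDC6*, which was well above background on no BA array and 1 CH array, it was in *UBE2C* (−0.51 ± 0.20, adjusted p = 1). On slides that held both breeds the medians were −0.14 at 110 dpc, −0.03 at 180 dpc and −0.07 and −0.23 at 210 dpc.

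At 260 dpc the direction was the opposite in most genes. There 35 of 49 genes were higher in BA (51.3% of all probes were), and in 18 genes both BA arrays lay above all 3 CH arrays, which 7.79% of all probes showed. In 4 genes, *CCNE2*, *RFC4* and both CDK inhibitors, they lay below (8.15%). Of these, *CCNE2* was well above background on neither BA array and on 2 of the 3 CH arrays, so the size of its difference was not measured. These counts too are of genes that fell together. By array medians over the 49 genes the breeds overlapped, at −1.90 and −2.14 in BA and −2.40, −2.08 and −2.17 in CH. The SD of array medians within groups was 0.12. Among the genes well above background on all 21 arrays, the largest higher values were in *ZWINT* (1.01), *CCNB1* (0.70), *RRM2* (0.61) and *CCNA2* (0.61). *KIF11* was at −2.06 and −2.27 in BA and −3.32, −3.62 and −3.09 in CH. No CH array and only 1 of the 2 BA arrays was well above background for it, so the size of a breed difference was not measured (adjusted p of the fit = 0.61, limma). Its BA mean was 1.19-fold above the lowest signal that counts as well above background on the CH arrays. *ZWINT* was at 0.67 and 0.63 in BA and −0.13, −0.68 and −0.26 in CH, a difference of 1.01 ± 0.26 (SE, adjusted p = 0.534, 95% interval 0.44 to 1.57). Another, dimmer probe of *ZWINT*, well above background on 12 arrays, gave a difference of 0.02. *CCNA2* was at 0.00 and −0.17 in BA and −0.89, −0.80 and −0.39 in CH, a difference of 0.61 ± 0.16 (adjusted p = 0.534).

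**Figure D5:**
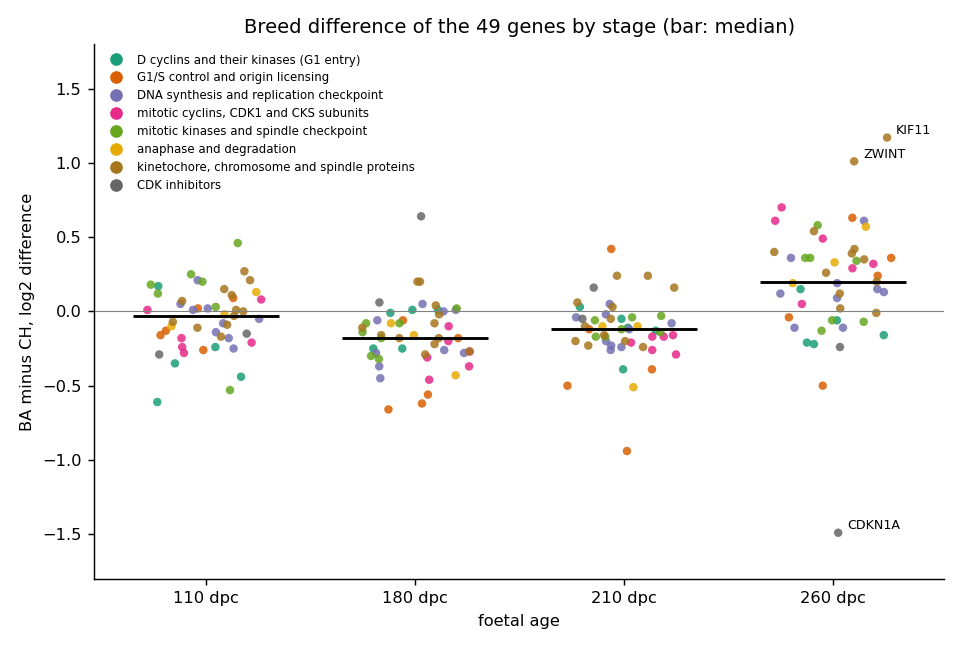
BA minus CH log2 difference (y axis) of the 49 genes at each foetal age (x axis), 1 point per gene, coloured by role, with the median as a bar. None passed an adjusted p under 0.05. The medians are −0.03, −0.18, −0.12 and 0.20, and at 260 dpc CDKN1A lies lowest at −1.49 and ZWINT is at 1.01. The point of KIF11 at 260 dpc is a fitted value against CH arrays that were not well above background. Its BA mean lay 0.25 above the lowest signal that counts as well above background there.

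*CDKN1A* had the largest breed difference of the 49 genes on the brightest probes, at 260 dpc and in the other direction. Its sign was not the same at all stages. At 180 dpc both BA arrays (6.23 and 6.40) lay above the CH arrays (5.40, 5.94 and 5.69), as in 12.6% of all probes. At 260 dpc it was at 3.24 and 3.39 in BA and 5.19, 5.36 and 3.87 in CH, a difference of −1.49 ± 0.36 (SE, adjusted p = 0.48, 95% interval −2.27 to −0.72). Without the CH female, replicate 3, it was −1.96 ± 0.28 and passed the test (adjusted p = 0.0146, limma). Without CH replicate 1 or 2, both male, it was −1.30 or −1.22 and did not pass (adjusted p = 0.601 and 0.751). Among female foetuses alone it was −0.55 ± 0.30 (adjusted p = 0.875), with 1 CH array. The second probe of *CDKN1A*, well above background on all 21 arrays, gave −0.51.

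Sex moved with breed at 260 dpc, since both BA foetuses were female, and these also shared a sire. With sex as a covariate the median breed difference at 260 dpc was 0.18 and 37 genes were higher in BA, and among females alone it was 0.07 with 30 genes higher. The CH female was above both CH males in 25 of 49 genes and below both in 6. Both BA females were above the CH female in 24 genes and below her in 14. These genes fell together, and no share of all probes was taken for these counts. The part of sex was not tested by them. On slide 4, which held a female of each breed, the median was 0.15 with 14 genes lower in BA, and on slide 2, with a BA female and a CH male, it was 0.29 with 15 lower.

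The breeds' courses were also compared directly, as the difference between the BA and the CH change. From 210 to 260 dpc the median of this difference was 0.37, with 40 of 49 genes falling less in BA (51.8% of all probes were above 0), and over 110 to 260 dpc it was 0.21 with 37 genes above 0 (48.1%). No gene passed in limma in any of the 4 intervals, where 0% to 0.00687% of all probes were called in a direction. Unadjusted p was under 0.05 for 1, 0, 12 and 8 genes from 110 to 180, 180 to 210, 210 to 260 and 110 to 260 dpc, against 5.53%, 4.24%, 3.38% and 5.3% of all probes. From 210 to 260 dpc *CDKN1A* again stood apart, with −1.65 ± 0.49 (SE, adjusted p = 1). From 110 to 180 dpc it fell less in BA, where its mean went from 6.89 to 6.32, than in CH, from 7.17 to 5.68.

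Other genes of the cycle, listed by role and not among the 49, fell over the same interval. Of 30 other mitotic genes measured, 27 were lower and 1 higher at 260 than at 110 dpc, with a median of −2.17, led by the kinesins *KIF4A* (−3.21 ± 0.15 SE) and *KIF15* (−2.85 ± 0.19) and the cohesin protector *SGO1* (−2.99 ± 0.16). *NCAPD2*, a condensin subunit, was the 1 that rose, by 0.49 ± 0.13. Among the lower ones, *KIFC1* and *CDCA5* were well above background on only 8 and 4 arrays. Of 27 other replication genes 19 were lower and 1 higher (median −0.83), among them the methylation cofactor *UHRF1* (−2.17 ± 0.17). *ORC1* of the origin complex, *POLE* and *BRCA1* were lower too, but well above background on only 14, 3 and 2 arrays. *RPA2*, of the single-strand binding complex, rose by 0.41 ± 0.09. Of 7 other G1/S regulators 5 were lower and none higher (median −1.41), among them the transcription factor *MYBL2* (−2.17 ± 0.14) and the phosphatase *CDC25B* (−2.11 ± 0.13). *CDC25A* and *E2F3*, whose value is that median, were well above background on only 6 and 4 arrays. Their falls and the median therefore have no measured size.

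Of 15 further inhibitors and brakes of the cycle, 4 were lower, 3 higher and 8 did not pass, with a median of 0.04, shares close to the 22.7% lower and 21.2% higher of all probes. *CDKN3*, a phosphatase of CDKs, fell by 2.58 ± 0.12 (SE), *RBL1*, a retinoblastoma relative, by 2.09 ± 0.16, and *GADD45A*, a stress-induced inhibitor, rose by 1.96 ± 0.18. The others that passed, picked after their values were seen, were *CDKN1C* at −1.52 ± 0.10, *CDKN2D* at −0.82 ± 0.16, *CCNG1* at 1.67 ± 0.14 and *TOB1* at 1.46 ± 0.09. None of the genes of the 4 lists passed between the breeds at 260 dpc. In the mean of the stages 1 of the 27 other replication genes was lower in BA, where 0.0298% of all probes were.

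Many markers of the tissue's cell types moved with the stages, and their part in the fall was not tested. From 110 to 260 dpc 22.7% of all probes were lower and 21.2% higher. All 7 muscle fibre markers measured were higher at 260 than at 110 dpc, and the log2 of their summed level rose from 11.20 to 11.71 in BA and 11.71 to 11.72 in CH at 110 dpc to 13.70 to 13.86 and 13.64 to 13.98 at 260 dpc. Of 6 myoblast and satellite cell markers 4 were lower, among them *MYMK*, the fusion protein (−4.54), *MYF5* (−2.17) and *CDH15* (−2.06), and none higher. Their summed level went from 8.35 to 9.03 in BA and 9.03 to 9.85 in CH to 7.76 to 8.01 and 7.36 to 7.93. *PAX3* stayed at background on all 21 arrays, and *PAX7*, the defining satellite cell marker, is not analysed here. Of 7 fibroblast markers 5 were lower, with *POSTN* the most (−4.37), and the summed level went from 10.98 to 12.03 in BA and 11.30 to 11.48 in CH to 10.35 to 10.82 and 10.20 to 10.92. Of 7 erythroid markers 4 were lower, with the summed level at 8.71 to 9.44 in BA and 9.49 to 9.66 in CH at 110 dpc, 9.63 to 10.16 and 9.23 to 9.74 at 180 dpc, and 7.60 to 7.70 and 7.26 to 8.12 at 260 dpc. *GATA1* of that list was at background throughout. Of 5 endothelial markers 3 were higher and 1 lower, of 5 leukocyte markers 2 were higher and 1 lower, of 5 nerve and Schwann cell markers 3 were higher, and of 3 adipocyte markers none passed. With lists this short and such shares of all probes, these counts are not read as changes of a cell type. Between the breeds at 260 dpc none of these markers passed.

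Most other probes of the same genes were also lower over the whole interval, with sizes that differed between probes. Of the 49 genes, 33 had 52 other probes, of which 48 were lower and none higher at 260 than at 110 dpc. Only 23 of the 52 were well above background on every array, and 22 of these were lower. The 4 that did not pass included those of *CCNE1* and *PTTG1*, which lay at background on all 21 arrays. The others were that of *CDKN1B* and 1 of *E2F1* (0.08, adjusted p = 0.822, limma), which also had a probe that fell by 1.23.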

How the data were processed

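Muscle RNA of 21 foetuses was hybridised to single-colour Agilent bovine arrays, 1 array each. The authors scanned and quantified the arrays with Agilent Feature Extraction 10.7, and the deposited scanner files give a processed intensity for each of 45220 spots. By the paper's methods this step detrended the signal and did not subtract background. The deposited value table held log2 intensities without scaling, equal within 0.01 to the log2 processed signal in 649643 of 649670 values.

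Each log2 processed signal had its own array's percentile 75 taken off, and a constant of 2.69 was added. Control spots and 258 spot values with outlier flags were left out, no spot was saturated, and averaging replicate spots gave 43653 probes. RefSeq transcripts named 26628 probes. The bovine genome sequence was not used here, so no sequence or coordinate is printed.

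Group means of the 8 breed and stage groups were fitted to all 21 arrays in limma 3.58.1 (R 4.3.3) with no filter on low values, 13 residual degrees of freedom, and contrasts for each step, breed and their difference. P-values were adjusted over all probes (Benjamini-Hochberg) and called under 0.05, and errors are the fit's standard errors. The fit was tested on simulated data. Every measured gene of the list is reported, by role, with all arrays for the D cyclins, the inhibitors and the gene of each role with the largest fitted change. *RRM1*, *ZWINT* and *CCNA2* were added after their values were seen. The genes and all lists were chosen with earlier results of these data known. The number of arrays limits the precision. Figures were drawn with matplotlib 3.10.9. The alternatives were 14 other settings and the omission of each array.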

Additional observations from a re-analysis of the deposited data

How the results depend on the processing

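The fall from 110 to 260 dpc kept its direction in every one of 14 alternative settings and in the 21 fits without 1 array, and no breed difference passed except *CDKN1A* at 260 dpc without CH replicate 3. The count from 180 to 210 dpc and the counts of single breeds were the least stable. Groups of 2 or 3 arrays and probes near background limit what can be measured. The causes of the changes below were not tested, apart from the filters, which leave fewer genes.

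Counts of lower genes are given for the breeds averaged, BA and CH where they moved. In the authors' values 15, 1 and 1 genes were lower from 110 to 180 dpc, 1 with the breeds averaged and 0 in CH from 180 to 210 dpc. The medians there were −1.48, −1.20 and −1.52 from 210 to 260 dpc, −2.36, −2.37 and −2.58 from 110 to 260 dpc, −0.26 for CH from 180 to 210 dpc, −0.03 for BA minus CH at 180 dpc and −0.18 for the breeds' difference from 180 to 210 dpc, while the median of all probes was −0.413 from 210 to 260 dpc and −0.371 from 110 to 260 dpc. With female foetuses only, 25, 2 and 4 genes were lower from 110 to 180 dpc, 1 and in CH 0 from 180 to 210 dpc and 20 in CH from 210 to 260 dpc, with medians of −1.13 for that CH step, −1.81 (BA) and −2.01 (CH) from 110 to 260 dpc and 0.07 for BA minus CH at 260 dpc.

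With genes above level 0 in 7 of 8 groups, which left 29, 23 and in BA 16 were lower and 1 and 1 higher from 110 to 180 dpc, 3 (BA) and 3 (CH) lower from 180 to 210 dpc, 24, 18 and 23 from 210 to 260 dpc and 28, 27 and 28 from 110 to 260 dpc. The medians were −0.52 and in BA −0.57, then −0.73, −0.62 and −0.84, and −1.57, −1.42 and −1.63. With the 43 genes well above background on every array, 1 was higher from 110 to 180 dpc, 14, 2 and 3 were lower from 180 to 210 dpc, and the medians from 110 to 260 dpc were −1.96 and in CH −2.09. With normexp correction 1 gene was higher from 110 to 180 dpc, 4 (BA) and 3 (CH) were lower from 180 to 210 dpc, and the medians were −0.54 and in BA −0.57, then −0.59, −0.47 and −0.69, and −1.31, −1.24 and −1.38. Quantile normalization gave 3 and 3 genes in BA and CH from 180 to 210 dpc, and trended robust variances 2 and 3, with 1 gene higher from 110 to 180 dpc. Median scaling gave 4 in CH from 110 to 180 dpc and a BA median of −1.84 from 110 to 260 dpc. The mean of all probes of a gene gave 5 from 180 to 210 dpc and medians of −2.01 and in CH −2.09 from 110 to 260 dpc and −1.04 in CH from 210 to 260 dpc.

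With sex as a covariate 5 genes were lower from 180 to 210 dpc and 1 was higher in CH from 110 to 260 dpc. With the scan day as a block 0 were lower in CH from 180 to 210 dpc. With the slide as a block 4 were lower in CH from 110 to 180 dpc, 0, 0 and 0 from 180 to 210 dpc and 15 in BA from 210 to 260 dpc, with medians of −2.01, −1.85 and −2.24 from 110 to 260 dpc and −0.28 in CH from 180 to 210 dpc. Replicate numbers did not pair the foetuses: the deviations of 66 pairs with the same number had a median correlation of −0.0101, against 0.00589 in 126 others. The replicate block gave 5 lower from 180 to 210 dpc and 6 in CH from 110 to 180 dpc. *CDKN1B* was no longer higher from 110 to 260 dpc (0 genes) with the authors' table, females only, normexp, quantile normalization, the slide block, the replicate block (adjusted p = 0.0624, limma) and the mean of probes. *CCNE1* reversed to 0.12 with normexp and *CDKN1B* to −0.15 in the authors' table.

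Without 1 array each, the lower counts for the 3 steps and the whole interval ranged from 29 to 40, 3 to 13, 39 to 42 and 47 to 47, in BA from 4 to 28, 0 to 2, 10 to 30 and 42 to 46, and in CH from 1 to 14, 0 to 2, 37 to 41 and 47 to 47. The count from 180 to 210 dpc was 3 without BA replicate 2 at 180 dpc and 13 without CH replicate 1 at 260 dpc. The higher counts ranged from 0 to 1 from 210 to 260 dpc, from 110 to 260 dpc and in CH from 210 to 260 dpc, and the breed count at 260 dpc from 0 to 1. The median from 210 to 260 dpc ranged from −1.13 to −0.90, that of BA from 110 to 260 dpc from −2.07 to −1.84, and the breeds' difference from 180 to 210 dpc from −0.10 to 0.13.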
